A study of Mus musculus with 8 samples.

Results

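Glycolysis and glycogen genes were read from Illumina MouseRef-8 v2 bead arrays of mouse embryonic stem cells (ESCs), primordial germ cells (PGCs) derived from them, and epiblast stem cells (EpiSCs). A list of 34 genes was taken: glucose transporters and hexokinases, the enzymes from glucose phosphate to pyruvate, lactate dehydrogenases and lactate carriers, kinases that set the flux, and the enzymes of glycogen. Of these, 31 had a probe among the 16593 genes of the array, and 27 were detected on at least 1 array, as were 8973 genes in all. Slc16a1, Pygm, Gbe1 and Pgm2 were below detection on every array, and Gpi1, Eno1 and Ldhb were not analysed here. The 27 detected genes fall into 4 for glucose entry, 6 for upper glycolysis, 6 for lower glycolysis, 2 for lactate and its export, 4 regulators of flux and 5 for glycogen, and 20 of them were detected on all 8 arrays.

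The groups were EpiSCs (2 arrays), Gcnf-deficient ESCs and wt ESCs, and Gcnf-deficient and wt PGCs sorted on days 12 and 15 of differentiation, with 1 array for each ESC or PGC condition. All samples, ESCs and EpiSCs included, carry the cell type label PGC and the strain label C57BL/6. The ESC lines came from Gcnf-/- and Gcnf+/+ embryos with the Oct4-GFP(ΔPE) reporter, whose fluorescence was also the gate for sorting PGCs. ESCs were kept on irradiated embryonic fibroblasts with LIF in a medium of high glucose, whereas PGCs were made without LIF and without feeder cells. The methods name male and female wt lines and a female Gcnf-deficient line. The sources used here do not tie a line to an array, so genotype and line cannot be told apart. Whether the 2 EpiSC arrays came from separate cultures is not stated either. The p-values measure only the spread among the arrays of a fit, most of which have no replicate.

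Glycolysis turns glucose into pyruvate in the cytosol, and lactate dehydrogenase turns pyruvate into lactate so that the pathway can go on with little oxygen. Pluripotent cells of the mouse run glycolysis at a high rate, and the naive and the primed state are known to balance it differently against respiration. Glycogen is the branched store of glucose. Glycogen synthase builds it from UDP-glucose and glycogen phosphorylase takes it apart.

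Values are log2 signals after background correction and quantile normalization, 1 probe per gene, and a gene is called detected where the array software gave a detection p under 0.01. The arrays were of similar brightness, with median raw signals of 138 to 189 and lowest detected signals of 5.38 to 6.03 (log2). The EpiSC arrays gave a yardstick for the spread: the difference between them had an SD of 0.18 over the 21 glycolysis and glycogen genes detected on both, and of 0.24 over 6768 genes. The wt ESC array stood apart. Of 15 fibroblast or feeder genes with a probe, 7 were detected in Gcnf-deficient ESCs and 11 in wt ESCs, and the list median was 6.47 in Gcnf-deficient ESCs, 9.84 in wt ESCs and 3.45 to 4.06 on the other arrays. Collagen genes such as Col1a1 had 6.49 in Gcnf-deficient ESCs and 10.52 in wt ESCs. Nr6a1, which encodes Gcnf, was detected on every array, and since the sources used here do not place its probe inside or outside the deleted part, it checks no label. The Y-linked list, with only 2 detected genes, had a median of 9.09 in wt day-12 PGCs, where all other arrays had 3.71 to 5.15. Within it, Eif2s3y was detected in wt day-12 PGCs alone (11.64, against 4.68 in wt ESCs and 2.82 in wt day-15 PGCs). Uty had 6.53 in wt day-12 PGCs, 5.61 in wt ESCs and 5.5 in wt day-15 PGCs. It was also detected in Gcnf-deficient day-15 PGCs (6.47) and Gcnf-deficient ESCs (5.79), so Uty does not set the wt day-12 array apart. Kdm5d was below detection on every array. By Eif2s3y alone, the wt arrays may thus not share 1 line, so stage and line cannot be told apart in wt cells either. The part of the line in the results was not tested. Naive pluripotency genes were at a median of 3.91 and 4.58 in EpiSCs, against 11.29 to 12.03 on the ESC and PGC arrays.

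Among the 6 ESC and PGC arrays, most of the glycolysis and glycogen genes were dimmest in wt ESCs. The wt ESC array held the lowest signal for 18 of 27 genes, and for 22.5% of all 8686 genes compared. The wt day-15 array held the highest for 11 of 27, and for 27.8% of all genes. Over all 8 arrays, 12 of 27 genes were lowest on the wt ESC array and 9 on an EpiSC array. The genes to pyruvate had a median of 10.69 on the wt ESC array and of 11.58 to 12.46 on the others, so that this array was the lowest, while for the 5 glycogen genes the EpiSC arrays were lower (6.68 and 6.53) than wt ESCs (7.35).

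**Figure D1:**
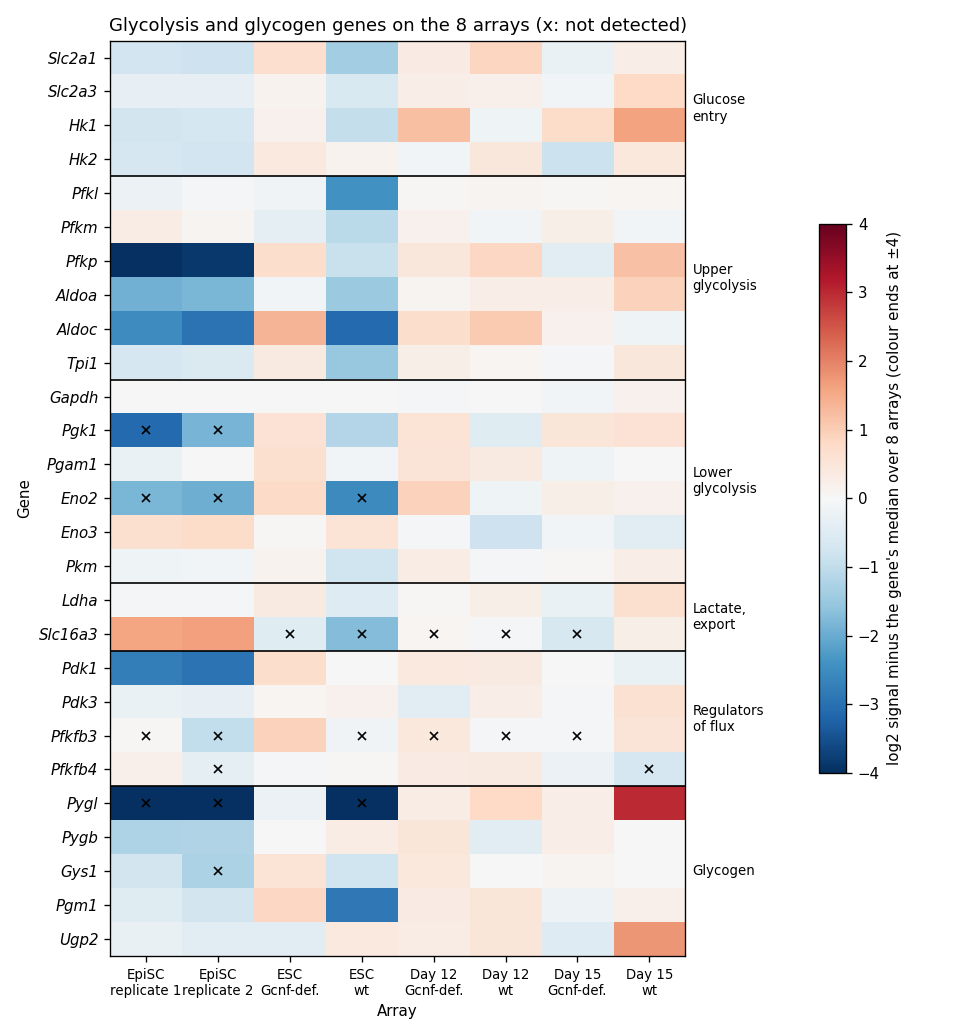
Heat map of the 27 detected genes (rows, by step) on the 8 arrays (columns). Colour is the log2 signal minus the gene's median over the 8 arrays, and crosses mark signals below detection. The wt ESC column is blue for Slc2a1, Pfkl, Aldoc, Eno2, Pygl and Pgm1, and the EpiSC columns are blue for Pfkp, Pdk1 and Pygl.

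The first question was how Gcnf-deficient and wt ESCs differ. Of 26 genes detected in at least 1 of these arrays, 13 were over 2-fold higher in Gcnf-deficient ESCs and 0 were over 2-fold lower (12 and 1 with median scaling), where 9.98% of all 7837 genes were higher and 9.12% lower. The median difference was 0.99 (log2), against -0.02 over all genes. By step, 5 of 6 genes of upper glycolysis, 2 of 4 for glucose entry, 2 of 6 of lower glycolysis, 3 of 5 for glycogen and 1 of 4 regulators were over 2-fold higher, and 21 of 26 were higher to any degree. With 1 array per condition these differences have no error of their own.

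For glucose entry, Slc2a1 (the glucose transporter GLUT1) had 13.74, 13.39 and 12.79 in Gcnf-deficient ESCs, day-12 and day-15 PGCs, against 11.67, 13.9 and 13.32 in wt cells of these stages. Among the ESC and PGC arrays the wt ESC array alone was low, and the difference in ESCs was 4.19-fold. The EpiSC arrays, at 12.3 and 12.23, were also below the other ESC and PGC arrays. Hk1, a hexokinase that traps glucose in the cell as its phosphate, had 7.46, 8.49 and 8.04 in Gcnf-deficient ESCs, day-12 and day-15 PGCs, against 6.35, 7.13 and 8.9 at the same stages in wt cells. Slc2a3 (the transporter GLUT3) and Hk2 were bright on every array, at 13.39 to 14.8 and at 11.94 to 13.26, and differed by less than 2-fold between the ESC arrays.

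In upper glycolysis, Aldoc, an aldolase that splits fructose bisphosphate, showed the largest difference of the genes detected in both ESC arrays, 22.0-fold. It had 10.51, 9.85 and 9.32 in Gcnf-deficient ESCs, day-12 and day-15 PGCs, against 6.05, 10.2 and 8.97 at the same stages in wt cells. Pfkl, the liver type of phosphofructokinase, which commits sugar to glycolysis, had 12.93, 13.11 and 13.11 in Gcnf-deficient ESCs, day-12 and day-15 PGCs, against 10.65, 13.18 and 13.15 in wt cells of these stages. The Gcnf-deficient arrays and the wt PGC arrays lay close together, and wt ESCs were below them all. A second, dimmer probe of Pfkl differed by 0.51 between the ESC arrays where the first differed by 2.27. Pfkp, the platelet type, was 1.58 higher in Gcnf-deficient ESCs than in wt ESCs, Aldoa 1.38 higher, and triose phosphate isomerase Tpi1 1.89 higher. Another probe of Tpi1 was 2.1 higher and its dimmest probe 0.84 higher. Pfkm, the muscle type, was 0.68 higher.

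Lower glycolysis was less uniform. Eno2, the gamma enolase of neurons, had 8.46, 8.63 and 7.95 in Gcnf-deficient ESCs, day-12 and day-15 PGCs, against 5.15, 7.52 and 7.89 in wt cells of these stages. It was below detection in wt ESCs alone among these 6 arrays, so that Gcnf-deficient ESCs were at least 6.42-fold higher. Such bounds set the brighter signal against the lowest detected signal of the dim array. Pgk1, the kinase that makes the first ATP of the pathway, was 1.75 higher in Gcnf-deficient ESCs (7.55, against 5.79 in wt ESCs). Gapdh, often used as a reference gene, had 15.15 in Gcnf-deficient ESCs and 15.12 in wt ESCs and spanned only 0.29 over the 6 ESC and PGC arrays. Pkm, which makes pyruvate, was 0.94 higher, Pgam1, the mutase before enolase, 0.75 higher, and Eno3, the muscle enolase, differed by -0.49. Ldha, which turns pyruvate into lactate, was 0.85 higher (14.59 in Gcnf-deficient ESCs and 13.73 in wt ESCs), and the lactate exporter Slc16a3 was below detection in both.

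Among the glycogen genes, Pygl, the liver form of glycogen phosphorylase, and Pgm1, the mutase that joins glucose 1-phosphate from glycogen to glucose 6-phosphate, differed most. Pygl had 8.13, 8.67 and 8.63 in Gcnf-deficient ESCs, day-12 and day-15 PGCs, against 4.2, 9.18 and 11.37 in wt cells of these stages. It was not detected in wt ESCs and was at least 5.11-fold higher in Gcnf-deficient ESCs, and its second probe had 6.86 in Gcnf-deficient ESCs and an undetected 5.41 in wt ESCs. Pgm1 had 11.48, 11 and 10.45 in Gcnf-deficient ESCs, day-12 and day-15 PGCs, against 7.8, 11.15 and 10.87 in wt cells of these stages. Among these 6 arrays the wt ESC array was the lowest for both genes. The synthase Gys1 was 1.36 higher in Gcnf-deficient ESCs, while Pygb, the brain phosphorylase, differed by -0.3 and Ugp2, which makes UDP-glucose, by -0.84. The flux regulators Pdk1 (0.69 higher), Pdk3 (-0.08) and Pfkfb4 (-0.1) were close between the ESC arrays, and Pfkfb3 (6.04 in Gcnf-deficient ESCs, undetected at 4.99 in wt ESCs) was at least 1.2-fold higher.

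**Figure D2:**
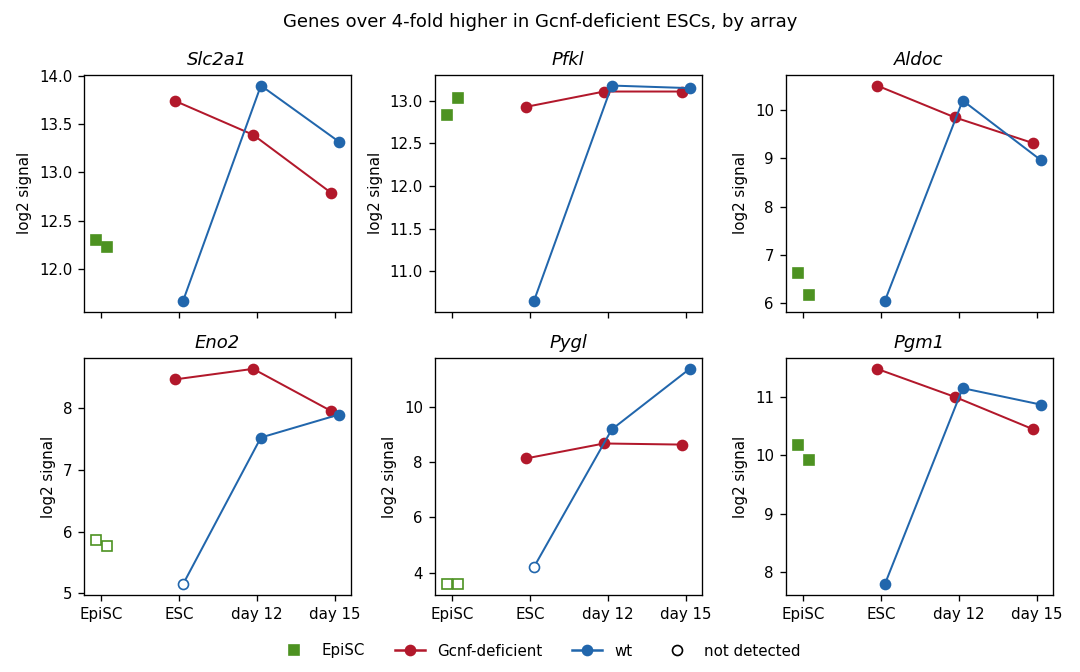
Log2 signal (y axis) of the 6 genes over 4-fold higher in Gcnf-deficient ESCs, by array (x axis): EpiSCs (squares), Gcnf-deficient cells (red) and wt cells (blue) as ESCs and as PGCs of days 12 and 15. Open symbols are below detection. In each panel the blue wt ESC point is under all other ESC and PGC points, for example at 7.8 for Pgm1 where the other 5 lie at 10.45 to 11.48.

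Hypoxia response genes outside glycolysis also had their lowest list median on the wt ESC array, though not every gene was lowest there. Of 13 measured in ESCs, 10 were over 2-fold higher in Gcnf-deficient ESCs and 0 lower, with a median difference of 2.47. Ddit4, an inhibitor of mTOR signalling, was 23.8-fold higher, the transcription factor Bhlhe40 17.5-fold, the oxygen sensor Egln3 10.7-fold and Ndrg1 9.36-fold. Kdm3a went the other way, with 10.99 in Gcnf-deficient ESCs and 11.84 in wt ESCs. Bhlhe40 was lower in EpiSCs (7.8 and 7.4) than in wt ESCs (8.08). The list median was 7.23 and 7.12 in EpiSCs, 9.29 in Gcnf-deficient ESCs, 6.76 in wt ESCs and 8.76 to 9.52 in PGCs. Hif1a itself was 7.54 in Gcnf-deficient ESCs and 8.46 in wt ESCs. Of neighbouring routes, 0 of 4 pentose phosphate genes and 0 of 8 genes of pyruvate entry to mitochondria were over 2-fold apart. Over 2-fold higher in Gcnf-deficient ESCs were 1 of 2 gluconeogenesis genes (Fbp2, at least 2.03-fold), 1 of 8 other glycogen genes (Ppp1r3c, at least 3.02-fold) and 2 of 6 other glycolysis genes (Emb, 39.5-fold, and Slc2a8, 3.12-fold), with 0 lower in each of these lists. The fibroblast or feeder genes ran the other way, with 10 of 11 over 2-fold lower in Gcnf-deficient ESCs and a median difference of -3.21. The part of these fibroblast genes in the glycolysis result was not tested.

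**Figure D3:**
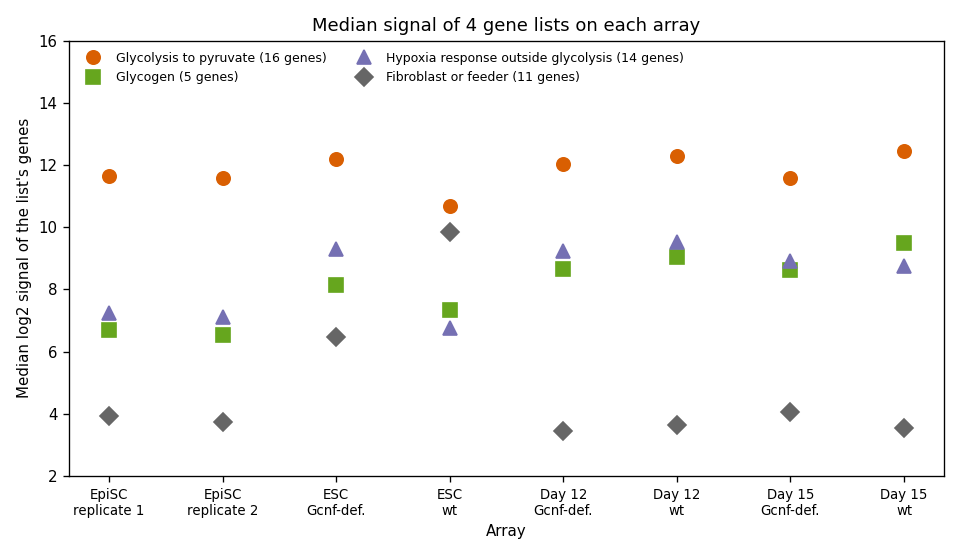
Median log2 signal (y axis) of 4 gene lists on each array (x axis), over the genes of a list detected on at least 1 array. The glycolysis and hypoxia lists are lowest on the wt ESC array (10.69 and 6.76), where the fibroblast or feeder list is highest (9.84).

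Promoters of the 6 genes over 4-fold higher in Gcnf-deficient ESCs are shown because genes that rise in low oxygen often carry the core of the hypoxia response element, ACGTG, near their start. RefSeq windows of 300 bases (build GRCm38.p6, 250 before and 50 after a start site) were found for 26 of the 27 detected genes. Capitals mark ACGTG on either strand, so CACGT where it lies on the other one, and CACGTG holds both. Aldoc is shown for the first of its start sites, and the window of its other start site, not shown, holds no match. The windows of Pfkl and Eno2 hold no match.
Slc2a1 (chr4:119108495-119108794, plus strand): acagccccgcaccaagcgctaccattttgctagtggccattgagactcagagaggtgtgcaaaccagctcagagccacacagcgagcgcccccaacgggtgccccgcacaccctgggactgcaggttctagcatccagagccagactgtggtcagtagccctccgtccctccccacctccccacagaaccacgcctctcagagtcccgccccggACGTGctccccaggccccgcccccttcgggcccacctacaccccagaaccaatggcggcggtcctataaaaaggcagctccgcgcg
Pfkl (chr10:78009758-78010057, minus strand): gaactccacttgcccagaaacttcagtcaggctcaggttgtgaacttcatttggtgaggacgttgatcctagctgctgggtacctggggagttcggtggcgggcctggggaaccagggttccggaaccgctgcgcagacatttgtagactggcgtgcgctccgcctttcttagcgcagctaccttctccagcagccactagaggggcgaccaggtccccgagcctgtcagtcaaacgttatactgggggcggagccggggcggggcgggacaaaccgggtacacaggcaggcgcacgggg
Aldoc (chr11:78322823-78323122, plus strand): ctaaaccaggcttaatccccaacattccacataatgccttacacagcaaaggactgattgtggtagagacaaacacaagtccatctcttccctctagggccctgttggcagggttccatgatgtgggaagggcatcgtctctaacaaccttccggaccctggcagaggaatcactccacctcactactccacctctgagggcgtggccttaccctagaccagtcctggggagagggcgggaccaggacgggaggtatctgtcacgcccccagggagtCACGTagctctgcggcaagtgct
Eno2 (chr6:124769624-124769923, minus strand): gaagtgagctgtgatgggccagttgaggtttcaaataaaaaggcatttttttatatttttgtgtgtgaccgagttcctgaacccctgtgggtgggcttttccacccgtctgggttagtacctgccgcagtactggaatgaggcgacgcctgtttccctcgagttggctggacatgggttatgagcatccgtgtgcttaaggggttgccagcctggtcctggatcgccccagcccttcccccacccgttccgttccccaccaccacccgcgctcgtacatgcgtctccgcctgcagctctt
Pygl (chr12:70227634-70227933, minus strand): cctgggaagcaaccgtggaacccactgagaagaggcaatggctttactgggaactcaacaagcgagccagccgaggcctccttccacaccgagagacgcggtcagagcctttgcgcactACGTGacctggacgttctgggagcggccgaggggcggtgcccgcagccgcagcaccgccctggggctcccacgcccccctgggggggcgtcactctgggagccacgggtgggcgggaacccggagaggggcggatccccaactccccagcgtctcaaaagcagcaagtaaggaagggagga
Pgm1 (chr4:99929201-99929500, plus strand): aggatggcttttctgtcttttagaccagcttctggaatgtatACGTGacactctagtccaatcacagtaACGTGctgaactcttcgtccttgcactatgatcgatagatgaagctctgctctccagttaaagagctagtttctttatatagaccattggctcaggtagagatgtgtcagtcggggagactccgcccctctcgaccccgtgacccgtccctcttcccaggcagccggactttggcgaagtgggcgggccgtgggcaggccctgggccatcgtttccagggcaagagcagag
At least 1 match was found in 18 of the 26 genes (69.2%), in 30.0% of 7303 detected genes with a window and in 21.8% of all 27025 genes. By window the shares were 55.3% of 38, 25.7% of 9427 windows of detected genes and 19.6% of all 32851. CACGTG, the E-box, lay in 7.89% of these 38 windows and in 7.15% of all. A match is a run of letters and says nothing about binding, and the genes with matches included both Pgm1 (3.67 higher in Gcnf-deficient ESCs) and Gapdh (0.04 higher).

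In day-12 PGCs the genotypes were close. Of 25 genes, 3 were over 2-fold higher in Gcnf-deficient PGCs and 0 were lower (4.65% and 5.42% of all genes), and the median difference was -0.02. The 3 were Hk1 (8.49 in Gcnf-deficient and 7.13 in wt PGCs), Eno2 (8.63 in Gcnf-deficient and 7.52 in wt PGCs) and Pgk1 (7.51 in Gcnf-deficient and 6.49 in wt PGCs).

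In day-15 PGCs, 0 of 27 genes were over 2-fold higher in Gcnf-deficient cells and 4 were over 2-fold lower, where 13.7% of all genes were higher and 11.4% lower. The median difference was -0.43, against -0.08 over all genes. Pygl was 6.67-fold lower (8.63 in Gcnf-deficient and 11.37 in wt PGCs), and its second probe had 7.74 in Gcnf-deficient and 9.34 in wt PGCs. Ugp2 was 4.92-fold lower (6.46 in Gcnf-deficient and 8.75 in wt PGCs), Pfkp 3.1-fold lower (10.13 in Gcnf-deficient and 11.76 in wt PGCs) and Hk2 2.48-fold lower (11.94 in Gcnf-deficient and 13.25 in wt PGCs). The glycogen genes Pygl and Ugp2 thus stood furthest apart here, while Pgm1 (-0.43) and Gys1 (0.12) differed by less than 2-fold. The endoderm list had a median of 7.61 in the Gcnf-deficient cells, against 5.52 in wt cells, and their part in these differences was not tested.

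**Figure D4:**
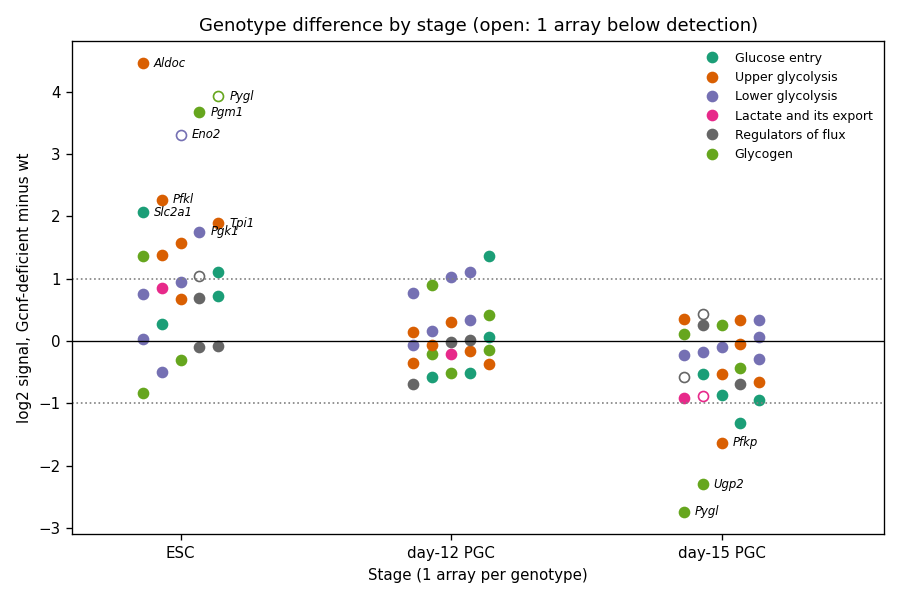
Difference in log2 signal, Gcnf-deficient minus wt (y axis), for each detected gene at each stage (x axis), coloured by step. Open symbols have 1 array below detection, and dotted lines mark 2-fold. Points lie mostly above 0 in ESCs (median 0.99), around 0 on day 12 (-0.02) and mostly below 0 on day 15 (-0.43).

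A genotype difference held over the 3 stages was tested with limma on these 6 arrays, with stage as a block. None of the 27 genes passed: 0 had an adjusted p under 0.05, the smallest was 0.358, and 2 were under 0.05 before adjustment, Eno2 (1.49 ± 0.61, SE, higher in Gcnf-deficient cells, adjusted p = 0.37) and Ugp2 (-1.11 ± 0.44, adjusted p = 0.358). Eno2 was higher in Gcnf-deficient cells at 3 of 3 stages and Ugp2 lower at 3 of 3, though not all of these differences were large. Eno2 had 7.95 in Gcnf-deficient and 7.89 in wt day-15 PGCs, and Ugp2 7.27 and 7.47 in those of day 12. The Eno2 estimate also rests on an undetected signal in wt ESCs. Of all 12717 probes 1 passed, so the fit, with 2 residual degrees of freedom, made few calls anywhere.

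The change from ESCs to PGCs followed from the same arrays. Its counts differed between the Gcnf-deficient and the wt arrays, while no gene passed the interaction test given below. In Gcnf-deficient cells, day-12 PGCs had 1 of 26 genes over 2-fold higher than ESCs and 0 lower (7.77% and 6.21% of all genes). Day-15 PGCs had 0 of 26 higher and 4 lower (11.1% and 7.74%), namely Hk2, Pfkp, Aldoc and Pgm1, with differences of -1.03 to -1.27 (log2). In wt cells, day-12 PGCs had 9 of 25 genes over 2-fold higher than ESCs and 1 lower (13.5% and 10.8%), the lower one being Eno3 at 6.99 on day 12, against 8.36 in ESCs. Day-15 wt PGCs had 16 of 27 higher and 0 lower (17.7% and 15.7%), with a median of 1.4, against 0.07 over all genes. The comparisons with wt ESCs and the genotype difference in ESCs share the wt ESC array.

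In wt day-15 PGCs, Pygl was at least 48.2-fold above wt ESCs, Pgm1 8.42-fold, Aldoc 7.54-fold, Hk1 5.86-fold, Pfkl 5.66-fold, Aldoa 5.3-fold and Eno2 at least 4.33-fold. Pygl also differed between the wt PGC arrays, at 11.37 on day 15 and 9.18 on day 12. The Gcnf-deficient PGCs had 8.63 on day 15 and 8.67 on day 12. Eif2s3y was detected on the wt day-12 array alone, so day and line cannot be told apart for the wt pair. The second probe of Pfkl differed by 0.17 between wt day-15 PGCs and wt ESCs where the first differed by 2.5. For Tpi1 the brightest probe differed by 1.96, another by 1.47 and the dimmest by 0.15. Between wt day-12 PGCs and wt ESCs these probes of Tpi1 differed by 1.61, 1.97 and -0.04. For Slc16a3, one of the 16, wt ESCs were undetected and the bound was at least 1.15-fold. With each array scaled to its median in place of quantile normalization, the count in wt day-15 PGCs was 11 higher and 1 lower, and the very bright Pkm and Ldha were 0.17 and 0.25 (log2) higher in place of 1.07 and 1.15.

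Neither stage contrast of the 6-array limma fit called any of the 27 genes. The smallest adjusted p was 0.384 for day 12 minus ESC and 0.213 for day 15 minus ESC, where 3 genes were under 0.05 before adjustment: Pygl (3.83 ± 1.42, SE), Hk1 (1.57 ± 0.59) and Aldoa (1.39 ± 0.53). In the interaction of genotype with differentiation, which asks whether the step from ESC to PGC differs between genotypes, 0 of 27 genes passed (smallest adjusted p = 0.465, limma) and 9 were under 0.05 before adjustment, as were 6.02% of all 12717 probes, none of which passed. The median interaction of the 27 genes was -1.16, against -0.03 over all probes. Pgm1 had -3.96 ± 0.61 (SE) and Aldoc -4.46 ± 0.88. The fitted values of Pygl and Eno2 rest on an undetected signal in wt ESCs and are no bounds.

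EpiSCs were set against ESCs as the primed against the naive state. Against wt ESCs, 4 of 24 genes were over 2-fold higher in EpiSCs and 4 lower (19.6% and 17.8% of all genes), a count near the background. Against Gcnf-deficient ESCs, 1 of 27 was higher and 13 were lower (17.9% and 16.7%), with a median of -0.99. Both ESC arrays entered the limma fit over all 8 arrays. The ESC level at wt genotype is there a fitted value and not the wt ESC array itself. EpiSCs were counted as wt in it, a genotype that their titles do not give. That fit called 2 genes higher in EpiSCs and 2 lower, where 11.9% of all probes were higher and 12.5% lower.

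The lower ones were Pdk1 and Pfkp. Pdk1, an inhibitory kinase of pyruvate dehydrogenase, had 8.64 and 8.43 in the EpiSC arrays, against 12.11 in Gcnf-deficient ESCs and 11.42 in wt ESCs. It fell by 3.07 ± 0.29 (SE, adjusted p = 0.00185, limma) in EpiSCs. Pfkp had 6.39 and 6.72 in the EpiSC arrays, against 11.29 in Gcnf-deficient ESCs and 9.71 in wt ESCs, and fell by 4.01 ± 0.75 (adjusted p = 0.0147, limma). The estimate for Pfkp was -2.91 without background correction and -3.22 with an offset of 50. A second probe had 5.99 and an undetected 5.57 in EpiSCs, against 10.11 in Gcnf-deficient ESCs and 7.91 in wt ESCs.

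The higher ones were Slc16a3 and Pfkm. Slc16a3 encodes MCT4, a carrier that exports lactate, and had 7.3 and 7.38 in the EpiSC arrays, against undetected signals of 5.24 in Gcnf-deficient ESCs and 4.01 in wt ESCs. EpiSCs were thus at least 2.96-fold above wt ESCs. It rose by 2.8 ± 0.52 (SE, adjusted p = 0.0143, limma), and by 0.94 without background correction and 1.25 with an offset of 50. Its other probes were below detection on every array. Pfkm had 11.32 and 11.13 in EpiSCs, against 10.64 in Gcnf-deficient ESCs and 9.95 in wt ESCs, and rose by 1.15 ± 0.27 (adjusted p = 0.0284, limma). Other probes of Pfkm were 0.74 and 0.43 higher in EpiSCs than in wt ESCs where this one was 1.27 higher. Of the phosphofructokinases, EpiSCs thus had Pfkl (12.83 and 13.03) and Pfkm at levels near those of PGCs and Pfkp far under them. Without either EpiSC array only Pdk1 still passed (adjusted p = 0.0145 without replicate 1 and 0.0164 without replicate 2).

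Against wt day-15 PGCs, 2 of 27 genes were over 2-fold higher in EpiSCs and 15 lower (23.1% and 24.2% of all genes), with a median of -1.06, against -0.01. All 4 genes of glucose entry and 4 of 5 glycogen genes were over 2-fold lower than on this wt array. With median scaling the count was 12 lower in place of 15 and the median -0.63. Of glucose entry only Hk1 was then still over 2-fold lower. When compared with the Gcnf-deficient day-15 array, EpiSCs showed 1 of 26 genes over 2-fold higher and 10 lower. The median was -0.31, against 0.04 over all genes. In that comparison 1 of 4 glucose entry genes and 3 of 5 glycogen genes were over 2-fold lower. The limma fit of EpiSCs against day-15 PGCs called 1 gene higher and 6 lower, where 15.9% of all probes were higher and 17.3% lower. Pygl fell by 6.3 ± 1.5 (SE, adjusted p = 0.0237), with estimates of -3.41 without background correction and -3.94 with an offset of 50. It was undetected in both EpiSC arrays, at 3.58 and 3.6, and they were at least 42.2-fold below wt day-15 PGCs. The second probe of Pygl had 6.12 and 5.49 in EpiSCs, against 7.74 in Gcnf-deficient and 9.34 in wt day-15 PGCs. Pygb had 8.21 and 8.25 in EpiSCs, against 9.74 in Gcnf-deficient and 9.48 in wt day-15 PGCs, and fell by 1.24 ± 0.36 (adjusted p = 0.0423), so both detected phosphorylases were lower.

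In the same fit Pfkp fell by 4.45 ± 0.75 (SE, adjusted p = 0.00864), Pgk1 by 2.57 ± 0.61 (adjusted p = 0.0233), Pdk1 by 2.55 ± 0.29 (adjusted p = 0.00281) and Aldoa by 2.39 ± 0.52 (adjusted p = 0.0185). Aldoa had 12 and 12.07 in EpiSCs, against 14.19 in Gcnf-deficient and 14.84 in wt day-15 PGCs. Pgk1 was undetected in both EpiSC arrays, and its estimate was -0.85 without background correction and -1.12 with an offset of 50. Slc16a3 rose by 1.88 ± 0.52 (adjusted p = 0.0372), by 0.73 and 0.94 under those settings, and had 5.98 in wt day-15 PGCs. Pfkp and Pdk1 passed without either EpiSC array, and Pgk1 without replicate 2 only. Ldha (14.2 and 14.18 in EpiSCs, 13.97 in Gcnf-deficient and 14.89 in wt day-15 PGCs) and Gapdh (15.14 and 15.15 in EpiSCs, 15.02 in Gcnf-deficient and 15.3 in wt day-15 PGCs) did not pass.

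**Figure D5:**
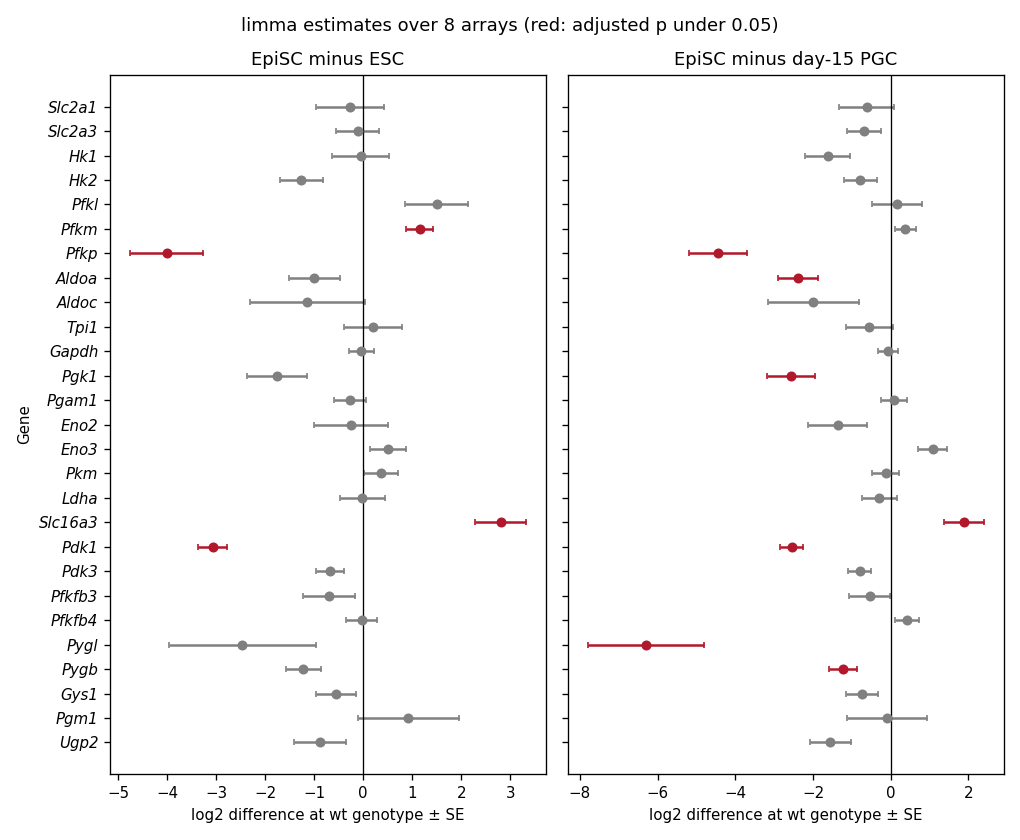
limma estimates (log2, x axes) with SE bars for the 27 detected genes (rows), EpiSC minus ESC on the left and EpiSC minus day-15 PGC on the right, at wt genotype over 8 arrays. Red points have an adjusted p under 0.05: Pfkm, Pfkp, Slc16a3 and Pdk1 on the left, and Pfkp, Aldoa, Pgk1, Slc16a3, Pdk1, Pygl and Pygb on the right.

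Further genes of these routes moved in EpiSCs in the same limma fits. Pdk4, another inhibitory kinase of pyruvate dehydrogenase, fell by 2.97 ± 0.27 (SE, adjusted p = 0.00153) against ESCs and was undetected in EpiSCs. Its ESC signals were themselves near the detection limit (6.02 in Gcnf-deficient and 5.95 in wt ESCs). EpiSCs were at least 1.03-fold below Gcnf-deficient ESCs, and no bound could be given against wt ESCs. Ldhc, the lactate dehydrogenase of testis, fell by 4.58 ± 0.61 (adjusted p = 0.00509), and the glucose transporter Slc2a6 rose by 3.89 ± 0.42 (adjusted p = 0.0028). Ldhc was undetected in EpiSCs, which were at least 4.01-fold below wt ESCs. Slc2a6 was undetected in both ESC arrays, and EpiSCs were at least 2.68-fold above wt ESCs. Against day-15 PGCs, 6 of 9 other glycogen genes fell and 1 rose, where 17.3% of all probes were lower and 15.9% higher. Nhlrc1 and Ppp1r3c, both among the 6, were undetected in EpiSCs, at least 3.86-fold and 3.61-fold below wt day-15 PGCs. The genes that fell included the primer glycogenin Gyg (-1.32 ± 0.35, adjusted p = 0.0341), the phosphorylase kinase subunit Phkb (-1.46 ± 0.31, adjusted p = 0.016) and Nhlrc1 (-2.62 ± 0.35, adjusted p = 0.00425). The glycogen binding protein Stbd1 rose by 1.35 ± 0.28 (adjusted p = 0.0161). Emb, a chaperone of lactate carriers, had 13.15 and 13.17 in EpiSCs, against 11.48 in Gcnf-deficient ESCs and 6.17 in wt ESCs.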

How the data were processed

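Gene expression was measured on 8 arrays: EpiSCs (2) and, with 1 each, Gcnf-deficient and wt ESCs and PGCs of days 12 and 15. Samples were grouped by their titles. Per the submitters' notes BeadStudio 3.2 gave the signals: the table of intensities that the authors deposited without normalization, and beside each one a detection p-value, also deposited. A second deposited table has the authors' own log2 values, for which they used RMA's background step and then quantile normalization.

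The intensities were processed again by those steps (an own implementation of the RMA background model, log2, quantile normalization over 8 arrays). The result correlated with the authors' table at r = 0.998, with a median of 4.72 against 3.2 (log2), and the version of lumi, which the notes also name, was not given in the sources used here. Symbols were updated through gene identifiers (23978 of 25697 probes with 1 symbol), and each gene was read from its probe of highest mean signal. Single arrays were compared by difference only. limma 3.58.1 in R 4.3.3 fitted stage plus genotype to 6 arrays (2 residual degrees of freedom) or 8 arrays (3), and the interaction to 6, over probes detected on at least 1 array (12717 or 13151), with Benjamini-Hochberg adjustment. In the 6-array fits the spread between stages or days stands in for replicates. In the 8-array fit the spread comes from the EpiSC pair and from how the genotype difference varies between stages. The scripts were tested on simulated data.

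All 34 genes were eligible to be named, and of companion lists those over 4-fold apart or past a test, at most 4 a list and comparison. Hif1a was chosen after its values were seen. The members and lists were chosen with earlier results of these data known. Alternatives covered the authors' values, background correction, scaling, detection filter, probe choice, fold limit, blocks, and leaving out stages or arrays. The number of arrays limits the precision, and the sources used here name no slides.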

Additional observations from a re-analysis of the deposited data

Results flagged for a closer look

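On the arrays 7 genes moved one way from ESCs to PGCs in Gcnf-deficient cells and the other way in wt cells on both days, each by more than the SD between the EpiSC arrays (0.18). This was so for 25.9% of the 27 genes and for 6.8% of all 8686 genes. The interaction (Gcnf-deficient minus wt change, log2, limma) was -2.58 for Slc2a1, -1.22 for Hk2, -2.58 for Pfkp, -4.46 for Aldoc, -1.41 for Ldha, 0.89 for Pygb and -3.96 for Pgm1. None of the 7 passed the test (adjusted p of 0.465 to 0.998), and all of them rest on the single wt ESC array and the single Gcnf-deficient ESC array.

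Slc2a1 is an example: Gcnf-deficient PGCs were 0.35 (day 12) and 0.95 (day 15) below their ESCs, and wt PGCs 2.22 and 1.65 above theirs. Pygb ran the other way, with Gcnf-deficient PGCs 0.51 and 0.3 above their ESCs and wt PGCs 0.7 and 0.27 below theirs.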

How the results depend on the processing

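Over all alternatives, the 695 recomputed differences of over 2-fold and the 128 recomputed test results of called genes all kept their direction. Genotype over stages, both PGC stages and the interaction had 0 of 27 genes called by limma under every alternative. For the genotype difference in ESCs the count of 13 of 26 genes over 2-fold apart lay between 9 (no background correction, or an offset of 50) and 14 (no detection filter). It was 20 at 1.5-fold and 6 at 4-fold. On day 12 the genotype count of 3 was 0 without background correction, 1 with an offset of 50, 1 with median scaling, 6 at 1.5-fold and 0 at 4-fold, and on day 15 the count of 4 was 10 at 1.5-fold and 2 at 4-fold. For Gcnf-deficient day-12 PGCs against ESCs the count of 1 was 0 without background correction, with an offset of 50 and with neqc, 3 at 1.5-fold and 0 at 4-fold, and for day 15 the count of 4 was 11 at 1.5-fold and 0 at 4-fold. In wt cells the count of 10 on day 12 was 18 at 1.5-fold and 6 at 4-fold, and that of 16 on day 15 was 8 at 4-fold. EpiSCs against wt ESCs had 8, and 13 at 1.5-fold, 5 at 4-fold and 14 with Gcnf-deficient ESCs in place of wt ESCs. Against wt day-15 PGCs the 17 were 9 at 4-fold. These limits call more or fewer genes by construction; for the other settings the cause was not tested.

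Of the tests, EpiSC minus ESC (4 genes) gave 1 without either EpiSC replicate and 11 with the EpiSCs and wt ESCs alone, all by limma. EpiSC minus day 15 (7 genes) gave 2 to 3 without 1 EpiSC replicate, 11 with an offset of 50, 11 with an intensity trend and 19 with the EpiSCs and wt day-15 PGCs alone. Pfkm (EpiSC minus ESC) did not pass with the mean of its detected probes (0.77, adjusted p = 0.0873) or with no detection filter (adjusted p = 0.0735). Against day 15, Slc16a3 (adjusted p = 0.056) and Pygb (0.082) did not pass with no detection filter, nor Pygb with median scaling (0.0579). No paired analysis was possible because the groups compared share fewer than 2 replicate numbers; genotypes were matched within a stage instead, and without that block 0 of 27 genes passed (smallest adjusted p = 0.565, limma). The fits with 1 wt array take their spread from the EpiSC arrays alone and assume that the lone array varies like them. Signals near detection, such as those of Slc16a3, Pfkfb3 and Pgk1, allow only bounds.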
